A study of Mus musculus with 2 samples.

Results

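The immediate early genes described here were 10 genes of the 32285 measured: the Fos family members Fos, Fosb, Fosl1 and Fosl2, the Jun family members Jun, Junb and Jund, and Egr1, Ier2 and Ier3. They were chosen by name, and each name occurred once in the gene list of both libraries. Cultured mouse THY-1+ germ cells, which are enriched in spermatogonial stem cells, were grown on STO fibroblast feeder cells, and 1 single-cell library was made from cells without FGF (0 ng/ml, control) and 1 from cells given 20 ng/ml FGF9, after 48 h. Both cultures had been maintained, at passages 9 to 12 by the labels and passage 12 by the methods of the study, in serum-free medium that held GDNF at 20 ng/ml, its co-receptor GFRA1 at 150 ng/ml and FGF2 at 1 ng/ml. The study describes a change at the start of the treatment to serum-free medium with either FGF9 or BSA, and calls the control cells cultured without growth factors. Each library pooled cells derived from several mice, and the clumps of germ cells were dispersed with trypsin before encapsulation. Cells were also tagged with an antibody to KIT, whose counts were not used here. The study reports a higher viability after this step in the FGF9-treated sample than in the control. Each group was prepared once, and the part of these steps in the levels of the members was not tested.

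AP-1 is a transcription factor made of 2 proteins that bind DNA together through basic leucine zippers. A Jun protein can pair with another Jun or with a Fos protein, whereas Fos proteins need a Jun partner, so the balance of the families sets which dimers can form. Fos, Fosb, Junb, Egr1, Ier2 and Ier3 are textbook immediate early genes, transcribed within minutes of growth factor signals through the ERK pathway without new protein synthesis and then quickly shut off, while Jund is present in resting cells. Most immediate early mRNAs are short-lived.

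The start regions of 3 of these genes are shown because Fos and Jun differed between the libraries in opposite directions, and because Ier3 had the largest ratio of all 10. The sequences are those of RefSeq on GRCm38.p6 and run from 250 bases before the start of the gene to 50 after it, 5′ to 3′ on the strand of the gene. They lie at chr12:85473640-85473939 on the plus strand for Fos, chr4:95052173-95052472 on the minus strand for Jun and chr17:35821463-35821762 on the plus strand for Ier3. Capitals mark the matches described after the sequences.
Fos: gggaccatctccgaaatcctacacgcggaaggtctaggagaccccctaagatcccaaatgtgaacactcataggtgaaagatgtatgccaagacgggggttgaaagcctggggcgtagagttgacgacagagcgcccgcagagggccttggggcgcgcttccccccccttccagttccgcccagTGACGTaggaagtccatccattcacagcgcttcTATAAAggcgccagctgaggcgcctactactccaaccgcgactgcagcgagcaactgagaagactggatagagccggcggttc
Jun: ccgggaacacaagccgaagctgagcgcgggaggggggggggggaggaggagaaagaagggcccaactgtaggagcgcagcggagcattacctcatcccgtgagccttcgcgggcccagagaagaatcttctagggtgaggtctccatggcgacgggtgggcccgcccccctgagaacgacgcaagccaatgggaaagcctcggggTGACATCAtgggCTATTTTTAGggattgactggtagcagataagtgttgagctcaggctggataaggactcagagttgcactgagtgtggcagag
Ier3: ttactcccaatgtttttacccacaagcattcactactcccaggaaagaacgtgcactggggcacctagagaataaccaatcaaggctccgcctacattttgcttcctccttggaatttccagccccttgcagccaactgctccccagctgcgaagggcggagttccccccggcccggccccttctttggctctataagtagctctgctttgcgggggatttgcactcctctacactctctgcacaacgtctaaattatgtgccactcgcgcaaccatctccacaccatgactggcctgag

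In Fos, the capitals are TGACGT, the core of the cAMP response element, which starts 66 bases before the gene, and the TATA box letters TATAAA, which start 33 bases before it. In Jun, they are TGACATCA, a variant AP-1 site, which starts 45 bases before the gene, and a MEF2 site, searched as a pattern of letters, which starts 33 bases before it. Ier3 held none of the motifs searched. Over 32851 start regions of this length, read on both strands, TGACGT was present in 7.51%, TATAAA in 13.6%, TGACATCA in 3.62% and the MEF2 site in 0.557%. Start regions of 7 members were in the table used. They follow the RefSeq starts, and the window of Jund (chr8:70697489-70697788) lies before, and that of Fosl2 (chr5:32136222-32136521) inside, the gene as the annotation used for positions places it. None of these 7 held the AP-1 letters TGANTCA, found in 7.81% of all regions, the ETS letters CCGGAAGT, found in 3.89%, or a CArG box, found in 1.63%. The EGR letters GCGNGGGCG were present in Fosb and Fosl2 and in 5.55% of all regions, and TATAAA was also present in Junb, so that no motif was shared by more than 2 members. These matches describe letters in a window and not binding. Sites more than 250 bases before the start were not searched, so a motif absent here can still lie further upstream of the gene.

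On GRCm38, the whole gene Fos lies at chr12:85473890-85477273, Fosb at chr7:19302696-19310051, Fosl1 at chr19:5447547-5455946 and Fosl2 at chr5:32135801-32157842. Each of these 4 Fos family genes has 4 exons in its principal transcript. Jun lies at chr4:95049034-95052222, Junb at chr8:84974484-84978718, Jund at chr8:70698949-70700616 and Ier2 at chr8:84661331-84662852, and the principal transcript of each has 1 exon. Ier3, with 2 exons, lies at chr17:35821684-35822923. Fosl1, Jun, Junb and Jund overlap a gene on the opposite strand (Ccdc85b, Junos, Prdx2 and Gm11175), and whether the counting used strand is not given in the sources used here.

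The control library held 5312 barcodes with 71481926 gene UMIs (unique molecular identifiers, each a counted mRNA molecule), against 5959 barcodes with 72669787 after FGF9. Barcodes with at least 2000 genes and at most 20% mitochondrial UMIs were kept, and a kept barcode was called a feeder cell if Vim and S100a6 together had at least 40 UMIs and a germ cell otherwise. This gave 4157 germ and 31 feeder cells without FGF9 and 4537 and 63 with it. Median UMIs were 14824 and 13067 per germ cell and 20517 and 26481 per feeder cell. Only 1 germ cell in each library had between 20 and 39 such UMIs, and 4 and 5 feeder cells had between 40 and 79. The germ markers went with the label: Dazl was at 1729 CPM (UMIs per 1000000 UMIs of the cell class) in control germ cells and at 1823 CPM after FGF9, whereas Col3a1, a fibroblast collagen, was at 0.354 and 0.790. The libraries shared 11 barcode sequences. Each group is 1 library, so that no test between groups was possible, and every interval given here is a 95% interval that covers counting error only. A sum cannot tell fewer expressing cells from fewer molecules per cell, so both were counted.

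In germ cells, Fos and Jun stood in opposite order in the 2 libraries. Fos, a proto-oncogene, was 2.34-fold higher with FGF9 and Jun, its classical partner, was 2.02-fold higher in the control. A member was counted as higher or lower if it had at least 20 germ cell UMIs over both libraries and a log2 ratio of CPM of at least 0.5 in size. By this rule, 5 of the 10 members were higher in the FGF9-treated library (Fos, Fosl1, Fosl2, Ier2 and Ier3), 2 were lower (Jun and Jund) and 3 lay between (Fosb, Junb and Egr1). Of all 17240 genes with as many UMIs, 12.9% were higher and 13.5% were lower, and the median log2 ratio was 0.55 over the members and -0.03 over all these genes.

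Within the Fos family, whose proteins pair only with other AP-1 proteins, 3 of 4 genes were higher with FGF9 in germ cells. Fos was at 34.7 CPM in the control (2348 UMIs) and at 81.2 CPM with FGF9 (5448 UMIs), a log2 ratio of 1.23 (1.16 to 1.30). Fosb, which gives both a full-length and a shortened protein, was at 27.7 and 31.8 CPM, a log2 ratio of 0.20 (0.11 to 0.29). Fosb was thus nearly level while Fos was not, and the ratio of Fos exceeded that of Fosb by 1.02 on the log2 scale (0.91 to 1.14). Fosl2, also called Fra-2, was at 3.62 and 7.48 CPM, a log2 ratio of 1.05 (0.82 to 1.27). Fosl1, also called Fra-1, was at 0.532 and 1.21 CPM, with only 36 and 81 UMIs behind them, and its log2 ratio was 1.18 (0.60 to 1.79). The low count of Fosl1 leaves its interval the widest of the 10. Fosb UMIs made up 41.6% of the Fos family UMIs in control germ cells and 26.2% in FGF9-treated ones, and Fos made up 52.2% and 66.7%.

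Within the Jun family, which can also dimerise with itself, Jun and Jund were lower with FGF9 and Junb was not. Jun was at 64.5 CPM in the control (4369 UMIs) and 32.0 with FGF9 (2147 UMIs), a log2 ratio of -1.01 (-1.09 to -0.94). Jund, the member linked with resting cells, was at 601 and 260 CPM, a log2 ratio of -1.21 (-1.24 to -1.18). Junb, which often opposes Jun in cell growth, was at 14.5 and 17.5 CPM, a log2 ratio of 0.27 (0.15 to 0.40). The ratio of Jun was below that of Junb by 1.28 on the log2 scale (difference of -1.28, -1.43 to -1.14), so the family did not move as a block. Jund made up 88.4% of the Jun family UMIs in control and 84.0% in FGF9-treated germ cells.

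The families therefore differed in opposite directions as sums: the Fos family went from 66.5 CPM in the control to 122 CPM with FGF9, and the Jun family from 680 to 309 CPM. There were 0.537 Fos UMIs per Jun UMI in control germ cells and 2.54 in FGF9-treated ones. The log2 ratio of Fos exceeded that of Jun by 2.24 (2.14 to 2.34) and that of Jund by 2.44 (2.36 to 2.51). This difference between genes does not depend on how the libraries were scaled.

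The remaining members were all higher or level with FGF9. Ier3, an ERK substrate that also shields cells from apoptosis, was at 39.7 CPM in the control (2687 UMIs) and 141 CPM with FGF9 (9460 UMIs), a log2 ratio of 1.83 (1.77 to 1.89), or 3.55-fold. Ier2, an immediate early nuclear protein, was at 12.3 and 19.6 CPM, a log2 ratio of 0.67 (0.54 to 0.80). Egr1, a zinc finger factor that ERK signals induce through serum response elements, was at 74.5 and 101 CPM, a log2 ratio of 0.43 (0.38 to 0.49). Among these 3, the counting intervals of the ratios did not overlap, and their order was Ier3, Ier2 and Egr1.

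**Figure D1:**
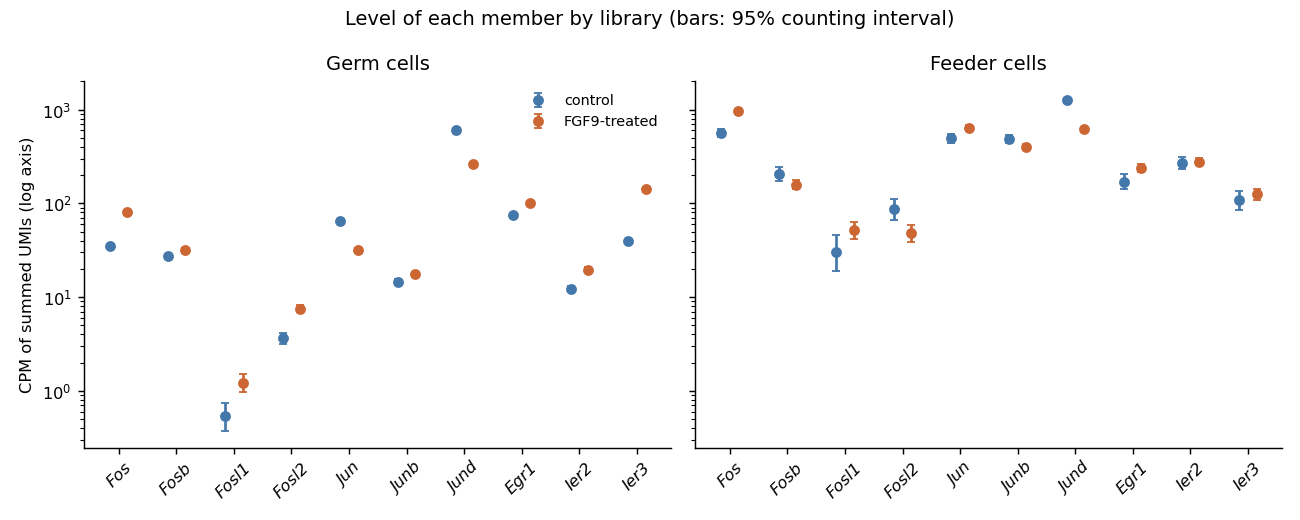
Level of each member in germ cells (left) and feeder cells (right) of the control (blue) and FGF9-treated (orange) library, as CPM of the summed UMIs on a log axis, with 95% counting intervals. In germ cells Fos is higher with FGF9 (34.7 and 81.2 CPM) and Jun is lower (64.5 and 32.0 CPM), whereas Ier3 spans 39.7 to 141 CPM.

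The feeder cells, fibroblasts that share the well, did not show the same pattern. They held more of every member than germ cells did, except Ier3 after FGF9 (125 and 141 CPM). In the control, Fos was at 566 CPM in feeder cells, 16.3 times the germ cell level, and Junb was at 487 CPM, 33.6 times. With FGF9, feeder cells were at 975 CPM of Fos, a log2 ratio of 0.78 (0.63 to 0.94). Jun was at 496 and 642 CPM, a log2 ratio of 0.37 (0.20 to 0.55). By summed UMIs it was thus higher with FGF9 in feeder cells and lower in germ cells. The mean over feeder cells of their own CPM gave a log2 ratio of 0.20 for Jun. With each feeder cell thinned to the same depth, the order was the other way. The mean was then 3.10 Jun UMIs per control feeder cell and 2.87 with FGF9. Jund was at 1254 and 615 CPM, a log2 ratio of -1.03 (-1.16 to -0.90), and was lower in both. One control feeder cell held 267 of the 868 Jund UMIs (30.8%), and leaving out any 1 feeder cell gave a log2 ratio of Jund between -1.09 and -0.56. Fosl2 was at 86.7 and 48.3 CPM, a log2 ratio of -0.84 (-1.33 to -0.35), the reverse of its order in germ cells. Fosb was at 205 and 158 CPM (log2 ratio -0.37) and Junb at 487 and 404 CPM (log2 ratio -0.27). Ier3, the member with the largest ratio in germ cells, was at 108 and 125 CPM in feeder cells, a log2 ratio of 0.21 (-0.17 to 0.60). Egr1 was at 170 and 238 CPM (log2 ratio 0.48), Ier2 at 270 and 277 CPM (log2 ratio 0.04) and Fosl1 at 30.3 and 51.5 CPM (log2 ratio 0.76). These values rest on 31 and 63 cells. When barcodes deeper than 2.5 times the median were dropped, 30 and 39 feeder cells were left, with Fosb at a log2 ratio of 0.30 and Junb at 0.06, so the direction of both depended on these barcodes. The germ markers summed to 1016 CPM in control feeder cells and to 271 CPM in FGF9-treated ones, against 5336 and 4397 CPM in germ cells, and the part of this germ cell RNA in the feeder cell ratios was not tested.

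**Figure D2:**
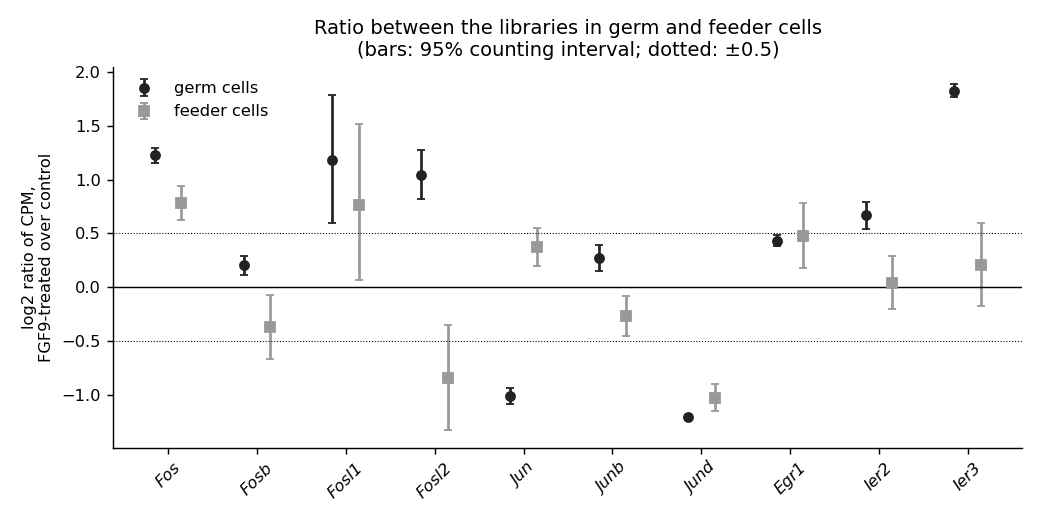
Log2 ratio of CPM, FGF9-treated over control, of each member in germ cells (black circles) and feeder cells (grey squares), with 95% counting intervals and dotted lines at 0.5 in either direction. Jun and Fosl2 lie on opposite sides of 0 in the 2 cell classes (Jun -1.01 and 0.37, Fosl2 1.05 and -0.84), and Jund lies below 0 in both (-1.21 and -1.03).

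Feeder markers differed between the libraries inside the germ cells too, though not all in 1 direction. Vim was at 3.65 CPM in germ cells without FGF9 and 18.5 CPM in those with it, and S100a6 at 7.67 and 16.0 CPM, whereas Col1a1, a fibroblast collagen, was at 22.3 and 12.3 CPM. Whether this RNA came from feeder cells was not tested. All 12 feeder markers together were at 171 and 244 CPM in germ cells, none was at 0, and 6 were higher and 2 lower by the rule used for members. If all Vim in germ cells came from feeder RNA, that RNA would be 0.145% of germ cell UMIs without FGF9 and 0.392% with it, and would give 2.36% and 4.71% of the Fos in them, 1.11% and 7.86% of the Jun, and 0.395% and 0.348% of the Ier3. Taking it off changed the log2 ratio of Fos to 1.19 and that of Jun to -1.11. Fosl1 was the member with the largest such bound, at 8.26% and 16.7%, and Fosl1 remained at a log2 ratio of 1.04.

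At the level of cells, the share of germ cells with a UMI differed between the libraries for most members. Each cell was thinned to 5000 UMIs so that depth was equal, which left 4141 control and 4515 FGF9-treated germ cells and dropped 16 and 22. Fos was found in 14.8% of control cells (13.8 to 15.9) and 27.5% of FGF9-treated cells (26.2 to 28.8). Jun was found in 24.6% (23.3 to 25.9) and 13.8% (12.8 to 14.8). Without thinning, the shares were 32.1% and 48.0% for Fos and 49.0% and 29.1% for Jun. Jund, the most widely found member, was present in 87.5% and 64.3% of the thinned cells. Ier3 was present in 16.6% and 39.3%, and Egr1 in 29.3% and 38.9%. The other members were in few cells: Fosb in 10.9% and 13.0%, Junb in 6.50% and 7.84%, Ier2 in 6.33% and 8.86%, Fosl2 in 1.62% and 3.85%, and Fosl1 in 0.362% and 0.465%. The intervals of the 2 libraries overlapped for Fosl1 (0.203 to 0.597 and 0.288 to 0.710) and for Junb (5.76 to 7.29 and 7.07 to 8.66). Fosl1, counted as higher by CPM, was thus not set apart by its share of thinned cells, with 15 and 21 cells behind it. Not thinned, its share was 0.818% (0.567 to 1.14) without FGF9 and 1.70% (1.34 to 2.12) with FGF9. Those intervals did not overlap, so the result for Fosl1 depended on the thinning. Feeder cells hold these genes themselves and so give no background share, and at the same depth Fos was in 61.3% of 31 control and 87.3% of 63 FGF9-treated feeder cells, Jun in 83.9% and 74.6%.

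**Figure D3:**
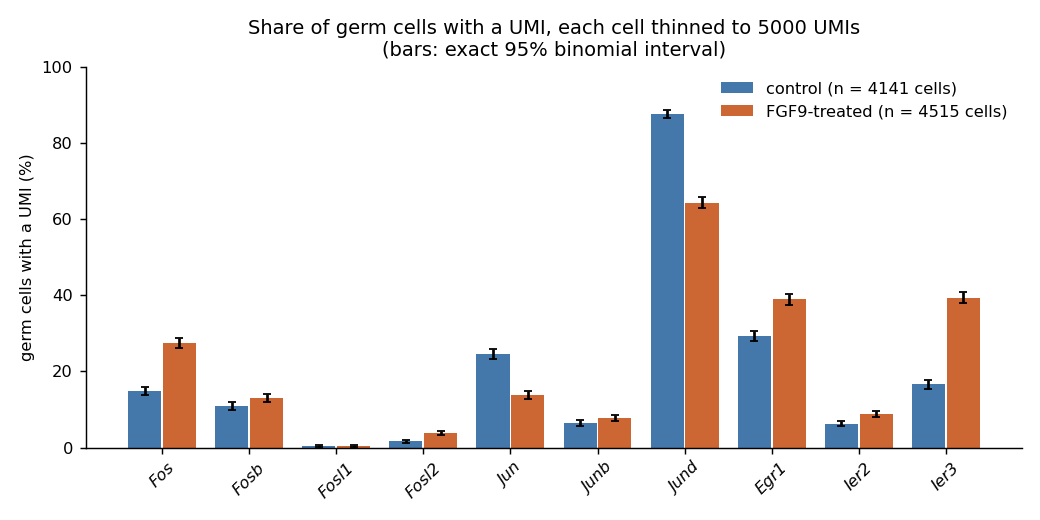
Share of germ cells with at least 1 UMI of each member after thinning every cell to 5000 UMIs (4141 control cells in blue, 4515 FGF9-treated cells in orange), with exact 95% binomial intervals. The share with Fos is higher with FGF9 (14.8% and 27.5%) and the shares with Jun (24.6% and 13.8%) and Jund (87.5% and 64.3%) are lower.

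The amount per cell followed the shares. Cells with Fos held 1.23 Fos UMIs on average in the control and 1.52 with FGF9, and cells with at least 5 numbered 1 and 25. Ier3 had a long upper tail with FGF9: cells with at least 5 Ier3 UMIs numbered 2 in the control and 98 with FGF9, and the most in a thinned cell was 13 and 16. The variance of the UMIs over their mean, which is near 1 when a gene is spread evenly over cells, was 1.34 and 1.75 for Fos, 1.45 and 2.28 for Ier3, 1.43 and 1.29 for Jun, and 1.20 and 1.09 for Egr1. Egr1 was thus the most evenly spread of these 4 in both libraries, while Ier3 was the most uneven with FGF9. No member was found in 4.59% of control and 7.13% of FGF9-treated cells, and at least 4 members in 9.25% and 15.3%. Leaving out Jund, at least 2 members were found in 30.3% and 46.0% of cells.

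Although Fos and Jun stood apart between the libraries, within each library they were found in the same cells about as often as, or more often than, the product of their shares gives. Both were present in 167 control cells, where the product gives 151, and in 209 FGF9-treated cells, where it gives 171. The log2 odds ratio was 0.23 (-0.05 to 0.51) in the control and 0.49 (0.23 to 0.75) with FGF9. The interval in the control includes 0, and over the alternatives run the value was between 0.15 and 0.48 in the control and between 0.41 and 0.66 with FGF9. Among the pairs for which the shares gave at least 5 cells, Fos with Fosb had the highest odds ratio in both libraries: both were found in 130 control cells against 67.2 from the shares, and in 314 FGF9-treated cells against 161. Its log2 odds ratio was 1.42 (1.09 to 1.74) in the control and 1.90 (1.64 to 2.15) with FGF9. Fosb was found in 21.2% of control cells with Fos and in 9.16% of those without it. Jun with Jund gave 1.05 and 0.58, Fosb with Jun 0.60 and 0.72, and Fos with Junb 0.69 and 0.62. Jund with Ier3 was on the other side of 0 in both libraries, at -0.21 (-0.55 to 0.13) and -0.28 (-0.46 to -0.10). Of those pairs, 26 of 35 in the control and 32 of 40 with FGF9 had a log2 odds ratio above 0. The whole interval lay above 0 for only 11 of the 35 and 18 of the 40, and below 0 for 0 and 1. Pairs of other genes were not counted, so these counts have no background. Cells of 1 library share its preparation, so these values describe the 2 libraries.

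**Figure D4:**
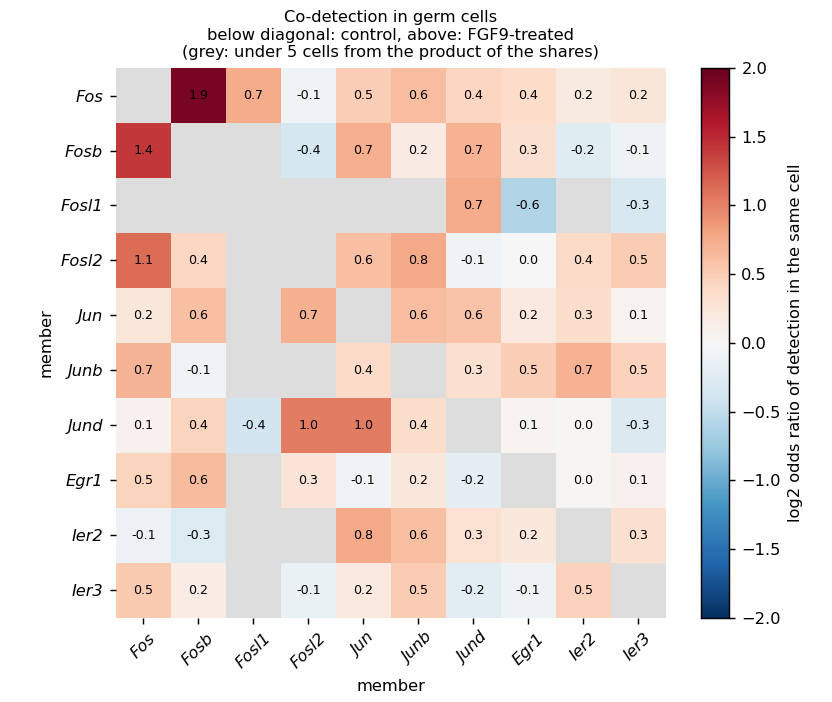
Log2 odds ratio of finding 2 members in the same thinned germ cell, below the diagonal for the control and above it for the FGF9-treated library, with red for pairs found together more often and blue for less often than their shares give, and grey where the shares give under 5 cells. Fos with Fosb is the darkest red on both sides (1.42 and 1.90), and Fos with Jun is pale red (0.23 and 0.49).

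Genes were ranked by the lower of the 2 libraries' Pearson r with Fos or with Jun over cells, and all of these likenesses were weak. Among 8176 genes found in at least 5% of the thinned germ cells of each library, Fosb came first for Fos (0.13 over 4141 control cells and 0.26 over 4515 FGF9-treated cells), followed by Egr1 (0.06 and 0.07), Cst3, Ptgr1 and Ccdc30. For Jun they were Jund (0.14 and 0.09), Fosb (0.08 and 0.08), Eif4g3, Orai1 and 1500004A13Rik. The order after the first gene differed between the libraries: Fos with Jun gave 0.03 in the control and 0.09 with FGF9, the latter above Fos with Egr1. The points share a library and a depth, and at such sparse counts an r of this size is a description.

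The members were next set beside cell state genes, chosen with earlier results of these data known. The 10 ERK pathway targets, which include the feedback inhibitors Spry4 and Dusp6 and the ETS factors Etv4 and Etv5, were found in 864 thinned germ cells of the control library and in 2957 after FGF9. In FGF9-treated cells, Ier3 was found in 35.3% of the 1558 cells with no target UMI, 39.2% of the 1535 with 1, 39.8% of the 859 with 2 and 49.9% (45.7 to 54.1) of the 563 with 3 or more. Fos gave 25.9%, 27.8%, 27.6% and 30.9% over the same steps, and Jun gave 13.4%, 15.1%, 11.9% and 14.0%. For Ier3 the intervals of the first step (32.9 to 37.7) and the last did not overlap, while for Fos they did (23.8 to 28.2 and 27.1 to 34.9). With any target UMI against none, the log2 odds ratio of Ier3 was 0.19 (-0.09 to 0.47) in the control and 0.37 (0.19 to 0.56) with FGF9. That of Junb was 0.48 (0.08 to 0.89) and 0.36 (0.02 to 0.71), and the intervals of all other members included 0 in both libraries. Cells without any target UMI also differed between the libraries: in the control, Ier3 was in 16.2% and Fos in 14.9% of them.

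**Figure D5:**
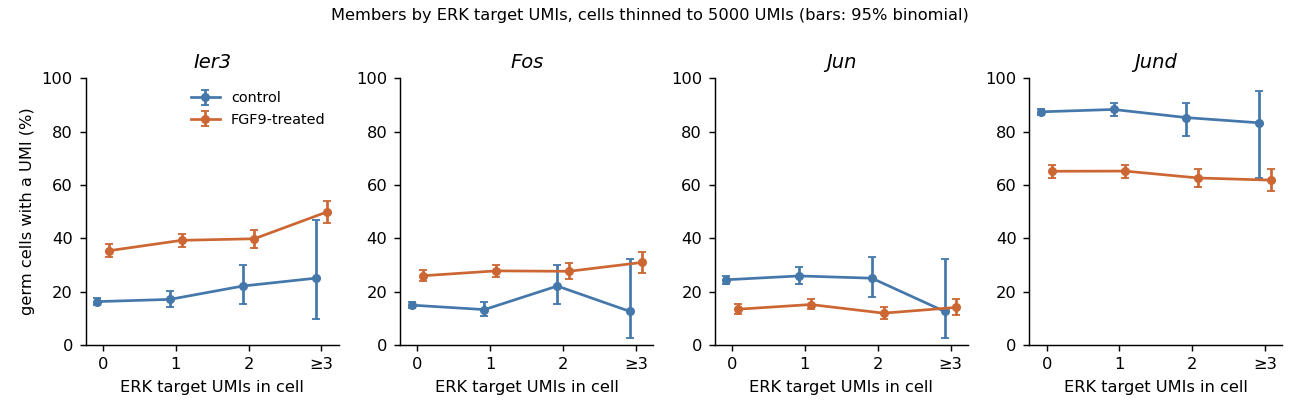
Share of thinned germ cells with a UMI of Ier3, Fos, Jun or Jund by the number of UMIs of 10 ERK pathway targets in the cell (0, 1, 2, 3 or more), for the control (blue) and FGF9-treated (orange) library, with exact 95% binomial intervals. Ier3 in the FGF9-treated library goes from 35.3% to 49.9%, Jund stays between 61.8% and 65.2% there, and the last control point rests on 24 cells.

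Jun was found less often in cells with Mki67, a marker of cycling cells: in 19.3% of 394 control cells with it and 25.2% of those without it, and in 8.80% of 1137 FGF9-treated cells with it and 15.4% of those without it. The log2 odds ratios were -0.49 (-0.86 to -0.11) and -0.91 (-1.24 to -0.59). Fos gave 16.0% and 14.7% in the control and 29.5% and 26.8% with FGF9.

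Cells with Ret or Gfra1, the GDNF receptor genes of undifferentiated spermatogonia, held Fos, Egr1 and Ier3 more often in both libraries, and Jun more often with FGF9. In the control, Ier3 was in 23.6% of 852 such cells and 14.8% of the rest, Fos in 18.9% and 13.8%, and Egr1 in 34.2% and 28.0%. These control cells also held Fosb and Junb more often (log2 odds ratios of 0.41 and 0.54) and Jund less often (-0.49). With FGF9 the gaps of Ier3 (41.3% and 37.0%), Fos (29.0% and 25.8%) and Egr1 (40.4% and 37.3%) were smaller. Jun was in 15.5% and 11.8% of these FGF9-treated cells, a log2 odds ratio of 0.45 (0.20 to 0.70), and in 23.9% and 24.8% of the control cells. Sohlh1, a regulator of spermatogonial differentiation, went with fewer Ier3 cells in the FGF9-treated library, with 30.5% of 1554 cells with Sohlh1 and 43.9% of 2961 without it, whereas the control gave 16.2% and 17.2%. Kit was found in 250 control and 55 FGF9-treated cells. Fos was in 11.6% and 36.4% of them, and 55 cells give these shares little precision.

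Other genes of the pathway were taken from lists, whose counts stand against 12.9% of all genes higher and 13.5% lower. Of the 13 measured other AP-1 partners, 3 were higher, 1 was lower and the median log2 ratio was -0.05. Jdp2, a repressor that dimerises with Jun, was at 0.753 CPM in germ cells of the control and at 2.74 CPM after FGF9 (log2 ratio 1.86), Batf at 14.7 and 22.6 CPM (0.62), and Creb5 at 1.23 and 0.417 CPM (-1.55). Of 32 measured other immediate early genes, 11 were higher and 5 lower, with a median of 0.32. Egr3 was at 0.428 and 3.37 CPM (2.98), Plk3 at 1.48 and 5.35 CPM (1.86) and Egr2 at 2.84 and 9.27 CPM (1.71). The 5 of 32 lower were thus close to the 13.5% lower among all genes, while the 11 of 32 higher were above the 12.9%.

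Of the 10 ERK pathway targets, 9 were higher and none lower, with a median of 1.82, and Spry4 was at 0.310 and 12.5 CPM (5.33), Etv4 at 1.21 and 26.5 CPM (4.45) and Etv5 at 1.82 and 29.5 CPM (4.02). Of 14 measured genes known as AP-1 targets, 11 were higher and none lower, with a median of 1.20, with Ccnd1 at 16.7 and 57.0 CPM (1.77), Spp1 at 6.94 and 20.0 CPM (1.52) and Timp1 at 4.89 and 12.2 CPM (1.32). Feeder cells held much of these genes: Spp1 was at 2079 and 4194 CPM and Timp1, also on the feeder marker list, at 656 and 761 CPM. In an alternative chosen after seeing the data, taking off the feeder RNA that Vim allows left Spp1 at 3.93 and 3.52 CPM (log2 ratio -0.16) and Timp1 at 3.94 and 9.24 CPM (1.23), and kept 8 of the 11 AP-1 targets as higher, without Spp1, Mmp3 and Cd44. For S100a6 this allowance was 173% of its FGF9-treated germ cell level, and for Col3a1 it was 510% without FGF9 and 615% with it, so it exceeded the counted RNA of some genes. If all Col3a1 in germ cells came from feeder RNA, that RNA would be only 0.0284% and 0.0638% of germ cell UMIs. This smaller bound was not taken off the lists. The allowance from Vim removed none of the members counted as higher or lower, and none in the other lists except 5 of the feeder markers. Of 26 MAP kinases and serum response factors, 4 were higher and none lower, with a median of 0.11, a share of higher genes close to the 12.9% among all genes. Mapk11 (p38 beta) was at 1.24 and 3.09 CPM (1.31), Map2k4 at 28.2 and 53.5 CPM (0.92) and Mapk9 at 19.9 and 33.8 CPM (0.77).

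The heat shock genes, a sign of cell stress, gave 0 of 11 higher and 1 lower, with a median of -0.01. Hspa1a was at 26.7 CPM without FGF9 and at 14.2 CPM with it (-0.91), Hspb1 at 3.80 and 2.85 CPM (-0.41) and Hspe1 at 467 and 541 CPM (0.21). Within each library, germ cells were split into 3 equal groups by mitochondrial share, and from the lowest to the highest they held Fos in 15.1%, 13.9% and 15.4% of control cells and in 27.2%, 27.9% and 27.3% of FGF9-treated cells. Jun was in 22.8%, 24.2% and 26.8% of these control cells and 13.9%, 13.9% and 13.4% of the FGF9-treated ones. Split by their UMIs before thinning instead, from the shallowest to the deepest group, Jun was in 25.7%, 25.4% and 22.8% of control cells and in 17.4% (15.5 to 19.4), 12.8% and 11.1% (9.55 to 12.8) of FGF9-treated cells. Fos was in 16.5%, 14.6% and 13.3% of the control and 27.8%, 25.6% and 29.0% of the FGF9-treated cells in the same groups. Of 12 markers of other testis and blood cells, 7 were measured, 4 were higher and none lower, and they summed to 13.9 and 20.4 CPM, with Cyp17a1 and Adgre1 at 0 in both libraries. Sox9 was at 1.55 and 3.89 CPM, Pecam1 at 2.10 and 3.83 CPM and Star at 4.05 and 5.05 CPM, and their part in the members' ratios was not tested. Of the 12 germ cell markers, 2 were higher and 2 lower, with Gfra1 at 16.5 and 58.6 CPM, Ret at 34.9 and 104 CPM and Uchl1 at 1345 and 648 CPM.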

How the data were processed

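The deposited files are 10x matrices of raw UMI counts, made by the authors with Cell Ranger on mm10. The matrix header gives version 3.1.0, and the processing notes also name Seurat 3.1. The deposited counts are not normalized. The KIT tag counts were not used, the barcode sequences served only to count those that both libraries hold, and no column of another sample was present. Members and gene lists were chosen with earlier results of these data known. Germ and feeder sums were scaled by total gene UMIs to CPM. Intervals are exact Poisson, conditional binomial or Clopper-Pearson ones at 95%. Odds ratios had 0.5 added to each count and normal intervals. Cells were thinned without replacement, and likeness used log(1 + UMIs per 10000). No doublets were called. From each other list up to 3 genes with the largest ratio in size were named among those with at least 100 germ cell UMIs, besides the 5 genes most like Fos and Jun, Vim and S100a6. Other genes named were chosen after their values were seen. Alternatives were TMM factors (edgeR 4.0.16), median of ratios size factors (DESeq2 1.42.0), cell means, other filters and other thinning. Scripts ran in Python 3.11.15 with numpy 2.4.6, scipy 1.17.1 and pandas 2.3.3, and R 4.3.3, and were tested on simulated data. Gene positions came from GENCODE vM21, which held 32235 of the 32285 gene identifiers. The samples carry 1 library per group, so p-values were not computed.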

Additional observations from a re-analysis of the deposited data

Results flagged for a closer look

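The libraries ordered 4 members in opposite ways in feeder and germ cells, each with a counting interval on its own side of 0 in both classes. The log2 ratio of FGF9-treated over control in feeder cells minus that in germ cells was 1.38 for Jun, -1.89 for Fosl2, -0.58 for Fosb and -0.54 for Junb. Each class had 1 library per group, so this difference was not tested. Fosb and Junb were no longer opposite without the feeder barcodes of over 2.5 times the median UMIs. Jun stayed opposite there, at a log2 ratio of 0.59 in feeder cells. In feeder cells thinned to the same depth, however, Jun was at a mean of 3.10 UMIs without FGF9 and 2.87 with it. Its order in feeder cells thus depended on the measure.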

How the results depend on the processing

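No paired analysis was possible because each group has 1 library and the labels number both as replicate 1. The counts of members higher (5) and lower (2) in germ cells held under every alternative run for them, except that a log2 ratio of 1 left 4 higher. With at most 10% mitochondrial UMIs, the Fos minus Jun difference was 2.11 and the Fos share with FGF9 26.0%. Thinned to 8000 UMIs, Fos was in 20.4% of germ cells without FGF9 and 35.2% with it, and Jun in 34.0% and 19.7%. Not thinned, Fos was in 32.1% and 48.0% and Jun in 49.0% and 29.1%. The order of the libraries was the same in each. Without barcodes over 2.5 times the median UMIs, Fosb reached 0.30 and Junb 0.060 in feeder cells, where both were below 0 as reported. The cause was not tested, though this left 30 control and 39 FGF9-treated feeder cells. Of 80 member ratios recomputed in germ cells, 77 stayed within their counting interval and 3 moved beyond it. In feeder cells 52 of 60 stayed. Fos with Fosb, in alternatives chosen after seeing the data, gave a log2 odds ratio of 1.32 in the control and 1.84 with FGF9 with Vim plus S100a6 under 10 UMIs, and 1.38 and 2.03 without the high barcodes. Without the feeder cell richest in the gene in each library, also chosen after seeing the data, Jund in feeder cells was at -0.59 and the other 9 members stayed within their intervals. Depth limits Fosl1 most, with 36 and 81 germ cell UMIs, and the feeder cells, at 31 and 63.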
